A study of Arabidopsis thaliana with 12 samples.

Results

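The transcript levels of 3-day-old Arabidopsis thaliana seedlings were compared between a BES1-RNAi line and wild type after exposure to green light. The members of the comparison were all genes listed in the deposited tables of both genotypes, which came to 633 of the 1731 genes listed for either. The BES1-RNAi tables listed 1077 genes and those of wild type listed 1287, and the lists hold genes that the authors had picked by a light difference in these same libraries, with the filter not given in the sources used here. Both groups were whole seedlings raised in darkness and then given 10 µmol m-2 s-1 of green light for 1 h. BES1-RNAi seedlings carry a construct that silences BES1 by RNA interference. The labels give neither its promoter nor the number of independent lines. Each group had 3 libraries, and 3 dark libraries of each genotype served for comparison. No value of BES1 was used here, so its silencing was not checked and the libraries are named by their labels.

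BES1 is a transcription factor that acts at the end of the brassinosteroid pathway. In the presence of the hormone it loses phosphate groups, accumulates in the nucleus and binds DNA at E-boxes and at a brassinosteroid response element. Brassinosteroids favour the elongated growth of seedlings in darkness, and light turns on the opposite programme of greening, pigment synthesis and photoprotection.

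The values are FPKM, that is, fragment numbers put on a common scale of transcript length and library size, and differences are given as BES1-RNAi minus wild type on the log2(FPKM+1) scale with their standard error, which understates the change of genes at low levels. A gene was counted as higher or lower where the Benjamini-Hochberg adjusted p of limma, over all 633 genes, was under 0.05. Because the genes were selected in these libraries, and because the labels do not say whether the replicates were grown separately, p-values here reflect only how far these libraries lie apart. A growth or preparation batch that coincides with genotype cannot be told apart from it. Replicate libraries had Spearman correlations of 0.984 to 0.994 over the listed genes. None of the seed storage, root hair, guard cell, vascular or endodermal markers searched for was among the shared genes, and neither was any organelle-encoded gene, so the tissue could not be checked with them. Depth is unknown, because whole reads could not be recovered from the FPKM values. In whole seedlings, fewer cells of a type and less RNA per cell cannot be told apart.

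Most of the shared genes had higher levels in BES1-RNAi after 1 h of green light. Genes of chlorophyll, carotenoid and flavonoid synthesis, photoprotection and photosynthesis were among the higher ones. Genes of gibberellin oxidation, the galactinol synthase gene GolS3 and 2 of 7 shared heat-shock genes were among the lower ones. In limma, 346 genes were higher, which is 54.7% of those tested, 101 were lower, 16%, and 186 did not pass, so that 70.6% were called in all. The libraries of the genotypes did not overlap for 467 genes, 73.8% of those tested, with BES1-RNAi higher for 364 of them, 57.5%, and lower for 103, 16.3%. Means differed at least 2-fold for 213 of the genes called higher and 35 of those called lower.

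The median difference over all 633 genes was 0.46, so the direction of a small difference depends on how libraries are put on a common scale. When each library was divided by its median ratio to the mean library, the median shifted by -0.64 to -0.18, with 184 genes higher (29.1%) and 262 lower (41.4%). When scaling was done within each light condition, an alternative chosen after seeing the data, the median stood at -0.01, with 231 genes higher (36.5%) and 226 lower (35.7%). All 101 lower genes were also lower under both scalings. Of the 346 higher genes, 231 stayed higher under scaling within each light condition, 107 did not pass and 8 were lower; under scaling to the mean library 184 stayed higher, 133 did not pass and 29 were lower. Below, a called gene that no longer passed or changed its sign under one of these scalings is named as such.

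**Figure D1:**
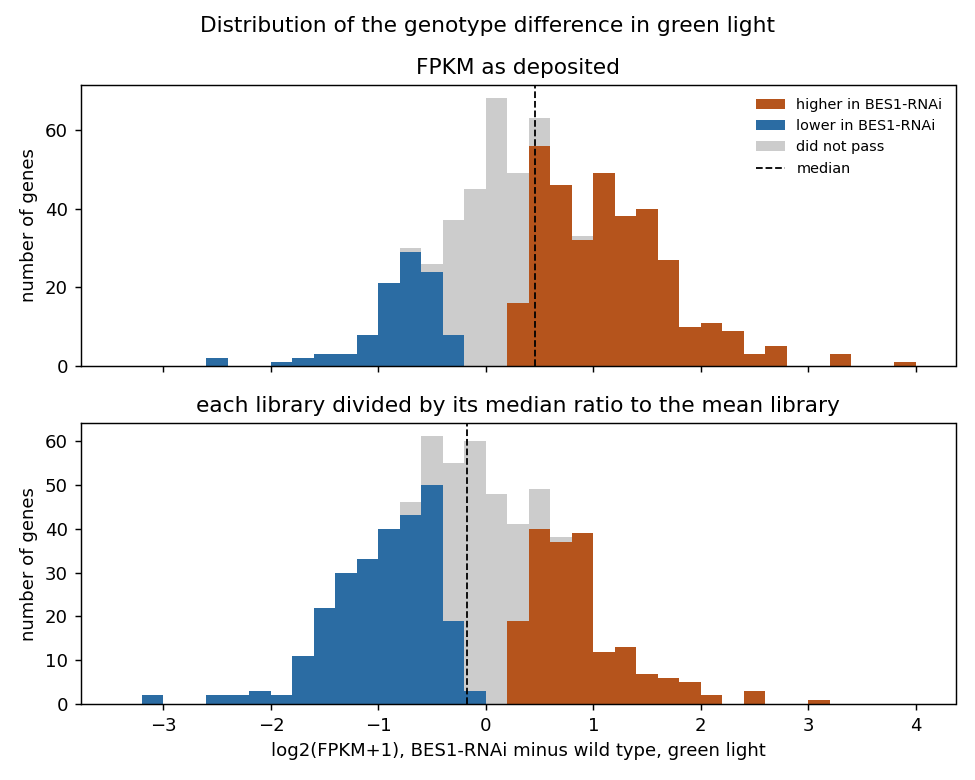
Number of genes (y axis) by the difference of log2(FPKM+1), BES1-RNAi minus wild type, in green light (x axis), for the 633 shared genes. Orange, blue and grey bars are genes higher, lower and not passed, and the dashed line is the median, which stands at 0.46 for the FPKM as deposited (top) and at -0.18 after each library is divided by its median ratio to the mean library (bottom).

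All 15 shared members of the chlorophyll, carotenoid, photoprotection and photosynthesis lists were higher in BES1-RNAi, beside 54.7% of all genes. These lists name 71 genes, so the 15 are the ones that the authors' tables held for both genotypes. The lists named here and below were chosen with earlier results of these data known. CHLH, the subunit of magnesium chelatase that binds protoporphyrin at the entry to chlorophyll synthesis, stood at 708, 712 and 692 FPKM in BES1-RNAi, against 153, 169 and 152 FPKM in wild type. The groups lay far apart and the replicates close together, with a difference of 2.15 ± 0.10 (limma adjusted p = 8.53e-11). GUN4, which activates magnesium chelatase, had 384, 361 and 402 FPKM in BES1-RNAi and 116, 160 and 136 FPKM in wild type. CAO, the oxygenase that makes chlorophyll b, had 214, 212 and 236 FPKM in BES1-RNAi and 77.8, 86.0 and 76.7 FPKM in wild type. Neither gene had overlapping groups, and the differences were 1.48 ± 0.10 and 1.45 ± 0.09. The 3 chlorophyll genes had a median of 1.48, against 0.46 over all genes, and stayed higher under both scalings.

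In the carotenoid branch, PSY, the phytoene synthase that commits precursors to carotenoids, stood at 265, 265 and 281 FPKM in BES1-RNAi, against 71.4, 93.6 and 72.8 FPKM in wild type. The 2 beta-carotene hydroxylase genes, BCH1 and BCH2, lead to zeaxanthin. BCH2 had 62.1, 58.4 and 63.7 FPKM in BES1-RNAi and 13.5, 17.2 and 12.2 FPKM in wild type, a difference of 2.04 ± 0.19 (limma adjusted p = 6.53e-08). BCH1 averaged 158 FPKM in BES1-RNAi and 57.1 FPKM in wild type. ZEP, the zeaxanthin epoxidase, differed least of the 4, by 0.95 ± 0.10, and did not pass under scaling to the mean library (0.19) while it did pass under scaling within each light condition (0.39).

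Photoprotection genes reached high levels. The early light-induced proteins are thought to bind free chlorophyll while thylakoids are assembled. ELIP2 had 863, 948 and 859 FPKM in BES1-RNAi, against 126, 229 and 124 FPKM in wild type. ELIP1 had 1190, 1298 and 1221 FPKM in BES1-RNAi, against 282, 387 and 344 FPKM in wild type. Every BES1-RNAi library was above every wild-type library for both, and wild-type library 2 was the highest of its group for both. PSBS, the photosystem II subunit needed for heat dissipation, averaged 1229 ± 53 FPKM in BES1-RNAi and 493 ± 72 FPKM in wild type (SD, n = 3 each). VTC2, the GDP-L-galactose phosphorylase of ascorbate synthesis, stood at 993, 1020 and 1066 FPKM in BES1-RNAi, against 317, 357 and 299 FPKM in wild type. OHP, a one-helix relative of the antenna proteins, differed by 1.25 ± 0.15. The 5 photoprotection genes had a median of 1.66 and stayed higher under both scalings.

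RBCS1B, a small subunit of Rubisco, had 1726, 1893 and 1806 FPKM in BES1-RNAi, against 300, 531 and 300 FPKM in wild type, a difference of 2.31 ± 0.18 (limma adjusted p = 8.66e-09). LHCB2.2, an antenna protein of photosystem II, had 684, 719 and 630 FPKM in BES1-RNAi, against 206, 340 and 208 FPKM in wild type. Wild-type library 2 again lay nearest to BES1-RNAi, and no groups overlapped. Both genes have near-identical copies in the genome, so how reads were shared among the copies is uncertain. LHCB4.3 averaged 46.1 FPKM in BES1-RNAi and 20.6 FPKM in wild type. SIGE, a plastid sigma factor that directs the chloroplast RNA polymerase, had a smaller difference of 0.59 ± 0.15 (limma adjusted p = 0.00263), which did not pass under either scaling and turned to -0.16 when scaled to the mean library.

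**Figure D2:**
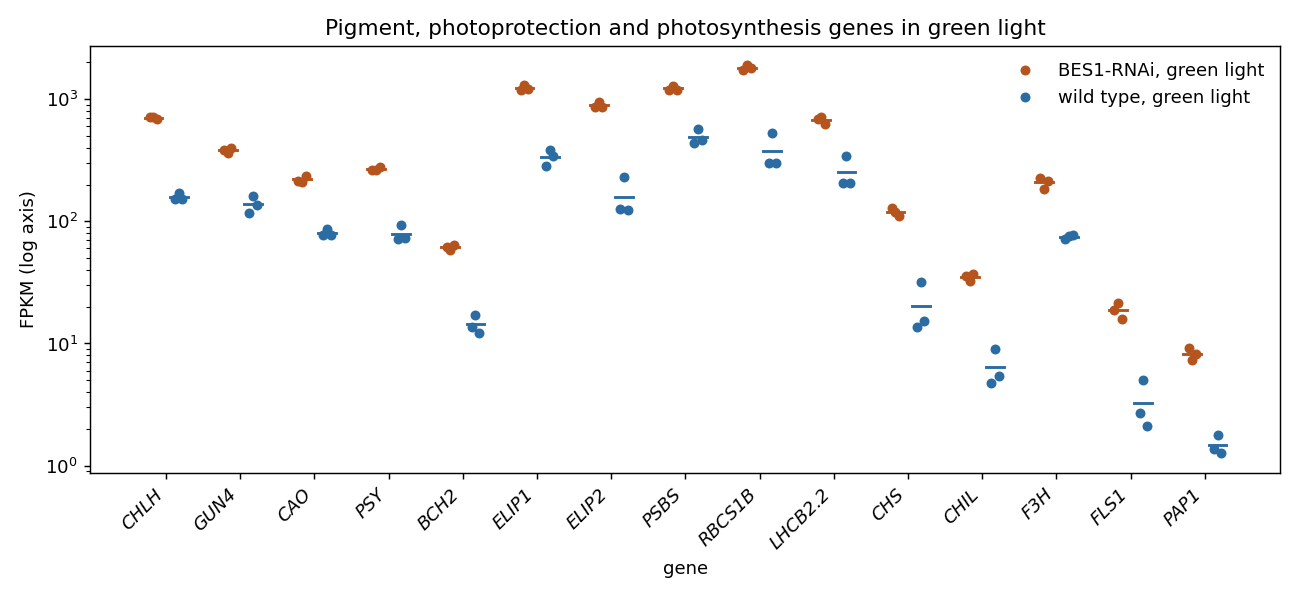
FPKM on a log axis (y) of 15 genes of pigment synthesis, photoprotection and photosynthesis (x), in green light. Points are single libraries, 3 each of BES1-RNAi (orange, left) and wild type (blue, right), and bars are group means. The groups do not overlap for any of them.

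Flavonoid genes stood higher as well, with 9 of the 10 shared members of a list of 25 called higher, none lower, and a median of 1.42, beside 54.7% higher, 16% lower and a median of 0.46 over all genes. Under either scaling 8 of the 10 were higher and none lower. CHS, chalcone synthase, the first enzyme of the branch, had 128, 120 and 111 FPKM in BES1-RNAi, against 13.6, 31.6 and 15.2 FPKM in wild type. CHIL, a chalcone isomerase-like protein that assists CHS, had 35.4, 32.4 and 37.4 FPKM in BES1-RNAi and 4.74, 9.0 and 5.46 FPKM in wild type. The ranges were well separated in both, and the differences were 2.61 ± 0.26 and 2.33 ± 0.23 (limma adjusted p = 2.06e-07 and 1.69e-07). Further along the pathway, F3H, flavanone 3-hydroxylase, differed by 1.47 ± 0.14 and FLS1, flavonol synthase, by 2.26 ± 0.25. The flavonol glycosyltransferase genes UGT78D1 and UGT78D2 differed by 1.37 and 0.62, and the second did not pass under either scaling (-0.13 when scaled to the mean library).

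Among the MYB regulators of the pathway, PAP1, which turns on anthocyanin genes, had 9.11, 7.26 and 8.27 FPKM in BES1-RNAi and 1.38, 1.77 and 1.26 FPKM in wild type. MYB111, a regulator of flavonol genes, averaged 12.96 FPKM in BES1-RNAi and 5.31 FPKM in wild type, a difference of 1.17 ± 0.19. MYB12, which acts on the same flavonol genes, averaged 1.92 FPKM in BES1-RNAi and 1.81 FPKM in wild type and did not pass (limma adjusted p = 0.811). Under both scalings the MYB12 value was negative and did not pass.

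The promoters of several of these genes contain the G-box, the letters CACGTG, which bZIP and bHLH factors of the light pathway bind. It was searched on both strands in the 250 bases before each RefSeq gene start (TAIR10.1), together with the brassinosteroid response element CGTGNG and the PBE-box CACATG. The promoters of 5 named genes with a G-box are shown, 3 of genes that were higher and 2 of genes that were lower. None of the 5 windows overlaps another annotated gene. Capitals mark the motifs. The windows are chr5:4488226-4488475 on the plus strand for CHS, chr1:16851272-16851521 on the minus strand for CAO, chr3:8085670-8085919 on the minus strand for ELIP1, chr1:3019389-3019638 on the plus strand for GolS3, a galactinol synthase, and chr4:8708591-8708840 on the plus strand for BBX30, a small B-box protein.
CHS: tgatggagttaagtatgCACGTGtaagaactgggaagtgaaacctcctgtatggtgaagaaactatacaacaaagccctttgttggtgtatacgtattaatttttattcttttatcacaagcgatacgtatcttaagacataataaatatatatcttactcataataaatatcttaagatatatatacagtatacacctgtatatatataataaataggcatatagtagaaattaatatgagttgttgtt
CAO: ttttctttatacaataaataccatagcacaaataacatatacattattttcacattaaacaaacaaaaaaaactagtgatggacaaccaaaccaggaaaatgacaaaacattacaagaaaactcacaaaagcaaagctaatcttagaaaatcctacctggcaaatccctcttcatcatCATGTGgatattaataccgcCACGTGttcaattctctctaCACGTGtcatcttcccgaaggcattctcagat
ELIP1: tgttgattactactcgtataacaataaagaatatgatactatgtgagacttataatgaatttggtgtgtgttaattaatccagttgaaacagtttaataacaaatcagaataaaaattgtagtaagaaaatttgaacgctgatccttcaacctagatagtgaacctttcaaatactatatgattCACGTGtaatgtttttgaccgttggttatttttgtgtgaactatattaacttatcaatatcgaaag
GolS3: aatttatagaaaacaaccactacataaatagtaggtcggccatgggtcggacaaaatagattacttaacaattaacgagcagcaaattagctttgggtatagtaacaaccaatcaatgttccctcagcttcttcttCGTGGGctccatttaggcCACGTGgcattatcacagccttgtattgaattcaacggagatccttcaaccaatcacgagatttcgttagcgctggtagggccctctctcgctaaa
BBX30: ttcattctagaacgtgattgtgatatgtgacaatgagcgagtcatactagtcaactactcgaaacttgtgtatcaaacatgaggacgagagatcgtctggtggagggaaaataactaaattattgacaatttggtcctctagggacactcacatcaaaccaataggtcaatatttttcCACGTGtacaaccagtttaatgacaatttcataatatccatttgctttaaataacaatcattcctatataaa
In CHS and ELIP1 the only capitals are a single G-box. CAO has 2 G-boxes close together and a PBE-box read on the other strand, CATGTG. GolS3 has a G-box and, upstream of it, CGTGGG, which matches the pattern CGTGNG but is not the brassinosteroid response element itself. A G-box stood in 15.0% of the promoters of higher genes, in 8.91% of those of lower genes and in 9.68% of those that did not pass, compared with 12.5% of all 633 and 5.39% of the 37897 nuclear gene starts in the annotation. The pattern CGTGNG stood in 15.6% of the promoters of higher genes, 15.8% of lower genes and 22% of those that did not pass. Its share was 17.5% over all 633 and 12% over all gene starts. A CACGTG whose next base but one is a G also matches CGTGNG, so these motifs can overlap. The PBE-box stood in 15.9%, 10.9% and 18.3% of higher, lower and not passed genes, compared with 15.8% of all 633 and 10.9% of all gene starts. These shares describe letters in a window and were not tested.

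The factors that govern greening were higher to unequal degrees. CGA1, a GATA factor that promotes chloroplast development, stood at 89.2, 95.6 and 99.9 FPKM in BES1-RNAi, against 7.93, 10.2 and 7.62 FPKM in wild type. With a difference of 3.33 ± 0.16 (limma adjusted p = 8.53e-11), it had the second largest difference of the higher genes. Its close relative GNC had 93.6, 90.8 and 112 FPKM in BES1-RNAi and 33.6, 38.3 and 32.0 FPKM in wild type, a difference of 1.49 ± 0.11. GLK2, which switches on antenna and chlorophyll genes, differed by 0.78 ± 0.08, or by 0.02 when scaled to the mean library, where it did not pass. GATA2, a GATA factor linked to both light and brassinosteroid responses, was lower by a little, at 17.7 FPKM in BES1-RNAi and 21.8 FPKM in wild type.

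B-box proteins, zinc finger factors that either assist or oppose HY5, did not move together. BBX17 had 12.3, 13.5 and 11.7 FPKM in BES1-RNAi and 3.94, 4.12 and 3.25 FPKM in wild type. BBX30, whose promoter is among those printed, had 11.8, 11.97 and 18.4 FPKM in BES1-RNAi, against 40.5, 32.3 and 39.1 FPKM in wild type. The first was higher by 1.5 ± 0.16 and the second lower, with a difference of -1.37 ± 0.20 (limma adjusted p = 1.61e-05). BBX24, BBX29, BBX31 and BBX32 did not pass, with values of -0.17, 0.23, -0.29 and 0.10, all negative under both scalings, where BBX24, BBX31 and BBX32 were called lower under both and BBX29 when scaled to the mean library. Among all genes 54.7% were higher and 16% lower, with a median of 0.46. Over the whole list of B-box, GATA and GLK factors, 8 of the 14 shared members were higher, 2 lower and 4 did not pass, with a median of 0.65. Under scaling within each light condition the same 14 gave 4 higher and 5 lower, and without single green-light libraries 1 to 3 lower.

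The light-signalling list had 16 shared genes, of which 8 passed as higher and 2 as lower while 6 did not pass, with a median of 0.37. Both the share called higher and the median are below those of all genes (54.7% and 0.46), and the balance turned to 4 higher and 6 lower when scaled to the mean library and to 5 higher and 6 lower when scaled within each light condition. HY5, the bZIP factor that drives light-induced transcription, stood at 244, 241 and 276 FPKM in BES1-RNAi, against 250, 219 and 236 FPKM in wild type. Its groups overlapped and it did not pass (0.11 ± 0.11, limma adjusted p = 0.387), though it was called lower under both scalings. HYH, its homologue, had 148, 165 and 187 FPKM in BES1-RNAi, against 42.5, 57.1 and 45.5 FPKM in wild type. Here no libraries overlapped, and the difference was 1.77 ± 0.13 (limma adjusted p = 4.7e-09).

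Genes that dampen light signalling split in both directions. SPA3, a partner of the COP1 ubiquitin ligase, had 97.1, 103 and 117 FPKM in BES1-RNAi and 39.6, 43.1 and 39.4 FPKM in wild type. SPA4 and SPA1, of the same family, differed by 1.19 and 0.72, and SPA1 did not pass under either scaling, at -0.03 when scaled to the mean library and 0.16 within each light condition. RUP2, a repressor of the UVR8 photoreceptor, had 108, 107 and 111 FPKM in BES1-RNAi and 37.5, 43.9 and 40.6 FPKM in wild type. RUP1, which has the same role, was lower at 67.4, 74.1 and 66.6 FPKM in BES1-RNAi, against 99.5, 99.0 and 111 FPKM in wild type. The pair thus ran in opposite directions, with differences of 1.4 ± 0.12 for RUP2 and -0.56 ± 0.11 for RUP1. Under both scalings RUP2 stayed higher, while the negative sign of RUP1 could not be challenged by them.

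PKS1, a phytochrome-binding protein of the phototropism pathway, stood at 57.9, 60.04 and 57.2 FPKM in BES1-RNAi, against 113, 116 and 122 FPKM in wild type, a difference of -0.99 ± 0.10 (limma adjusted p = 1.7e-07). RPT2, which modulates phototropin signalling, was higher, at a mean of 574 FPKM in BES1-RNAi and 378 FPKM in wild type, though it did not pass under either scaling and stood at -0.15 when scaled to the mean library. PIF5, a bHLH factor that promotes elongation, averaged 73.6 FPKM in BES1-RNAi and 38.6 FPKM in wild type, and did not pass when scaled to the mean library (0.17). The shade markers PIL1 and ATHB2 did not pass. PIL1 averaged 2.84 FPKM in BES1-RNAi and 2.51 FPKM in wild type, and ATHB2 11.7 FPKM in BES1-RNAi and 12.1 FPKM in wild type. ATHB2 was called lower under both scalings.

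The clock list had 12 shared genes, with 6 higher, 2 lower, 4 not passed and a median of 0.14. The shares over all genes were 54.7% higher and 16% lower, with a median of 0.46. LHY, a morning MYB factor of the central oscillator, had 192, 201 and 193 FPKM in BES1-RNAi and 112, 115 and 115 FPKM in wild type. RVE1, a related MYB factor that links the clock to auxin, had 47.4, 49.5 and 57.3 FPKM in BES1-RNAi, against 94.0, 92.2 and 80.6 FPKM in wild type. The groups of both genes were separate. The coactivators LNK1 and LNK2 were higher by 0.89 ± 0.11 and 0.80 ± 0.10, whereas LNK3 and LNK4 did not pass and were called lower under both scalings. LHY, LNK1 and LNK2 did not pass when scaled to the mean library. The clock list is one whose direction rests on scaling, with 0 higher and 7 lower when scaled to the mean library and 3 higher and 7 lower when scaled within each light condition.

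SAUR genes, many of which are induced by auxin and promote cell expansion, held some of the largest differences. SAUR6, a member of the family, had 96.3, 109 and 121 FPKM in BES1-RNAi, against 12.9, 17.1 and 21.0 FPKM in wild type. It overlaps AT2G21200 on the same strand, so its reads may include reads of that gene. SAUR14 had 127, 171 and 167 FPKM in BES1-RNAi, against 41.8, 56.4 and 45.5 FPKM in wild type. These are differences of 2.63 ± 0.14 and 1.67 ± 0.13 (limma adjusted p = 5.54e-10 and 1.54e-08), both called higher under both scalings. Of the 7 shared genes annotated as SAUR-like, 4 were higher, 1 lower and 2 did not pass, which is near the 54.7% higher among all genes, and 2 were higher and 1 lower when scaled to the mean library. AT4G12410 was the lower one, at 6.63, 5.71 and 6.84 FPKM in BES1-RNAi, against 10.3, 6.87 and 11.7 FPKM in wild type. Its groups lay almost in contact, and it did not pass when wild-type library 1 or 3 or BES1-RNAi library 2 was left out (limma adjusted p = 0.0758, 0.124 and 0.0834). IAA19, an auxin-inducible repressor, was higher by 0.38 ± 0.10, but it lay at -0.37 and was called lower when scaled to the mean library, and at -0.18 without a call when scaled within each light condition.

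The expansins EXPA1 and EXPA10, which loosen cell walls, were higher. EXPA10 had 87.6, 71.7 and 83.5 FPKM in BES1-RNAi and 24.9, 25.7 and 29.0 FPKM in wild type. EXPA1 averaged 186 FPKM in BES1-RNAi and 85.3 FPKM in wild type. XTH15, a xyloglucan endotransglucosylase, was lower, at 167, 171 and 143 FPKM in BES1-RNAi, against 276, 238 and 287 FPKM in wild type. None of the 3 had overlapping groups, which held for 73.8% of all genes.

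The gibberellin list had the lowest median among those with at least 5 shared members, at -0.75, and 3 of its 5 members, all oxidases, were lower. Among all genes 16% were lower, with a median of 0.46. GA3OX2, which makes active gibberellin, stood at 4.16, 2.68 and 2.56 FPKM in BES1-RNAi, against 5.93, 5.07 and 7.65 FPKM in wild type. GA2OX1, which inactivates it, had 31.1, 28.5 and 30.9 FPKM in BES1-RNAi and 51.4, 47.1 and 56.3 FPKM in wild type. GA2OX8, another inactivating enzyme, averaged 3.76 FPKM in BES1-RNAi and 7.21 FPKM in wild type. The lower genes thus include an enzyme of synthesis and enzymes of inactivation, with differences of -0.81, -0.75 and -0.79. GA2OX2 did not pass, though it was called lower under both scalings. The DELLA gene GAI, a repressor of gibberellin responses, was higher by 0.41 ± 0.10. However, GAI lay at -0.31 and was called lower when scaled to the mean library, and at -0.12 without a call when scaled within each light condition.

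The list of brassinosteroid genes had 2 shared members. BEE3, a bHLH gene that brassinosteroids induce early, had 1.23, 0.50 and 1.64 FPKM in BES1-RNAi, against 2.89, 1.63 and 5.53 FPKM in wild type, a difference of -0.97 ± 0.27 (limma adjusted p = 0.00407) between groups that overlapped slightly. PRE6, an atypical bHLH protein of the same growth module, averaged 40.2 FPKM in BES1-RNAi and 38.7 FPKM in wild type and did not pass, though it was called lower under both scalings. ABCI20 and ABCI21, ABC proteins without a membrane domain, were higher by 0.45 and 0.42, close to the median of all genes, and had the opposite sign under both scalings, with a call of lower when scaled to the mean library.

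The largest difference of all belonged to KIN1, a cold- and drought-inducible protein, with 82.7, 63.9 and 130 FPKM in BES1-RNAi, against 8.38, 6.35 and 2.64 FPKM in wild type. KIN2, a closely similar neighbouring gene, had 325, 240 and 339 FPKM in BES1-RNAi, against 50.3, 58.1 and 61.5 FPKM in wild type. Both were separated without overlap, by 3.82 ± 0.34 and 2.38 ± 0.19, but their sequence similarity leaves the split of reads between them uncertain. CBF3, a factor that activates cold genes, was lower instead, with 1.01, 1.07 and 1.86 FPKM in BES1-RNAi and 3.36, 3.14 and 2.79 FPKM in wild type.

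The list of carbon starvation and sugar genes had 4 shared members, with MIOX2 and DIN10 lower, BT2 higher and EXL1 not passed, and kept these counts under both scalings. Among all genes 16% were lower and 54.7% higher. BT2, a BTB-TAZ scaffold protein of the nutrient response, averaged 68.4 FPKM in BES1-RNAi and 12.8 FPKM in wild type. GolS3, which belongs to no list and makes galactinol for raffinose sugars, had 16.6, 18.6 and 18.1 FPKM in BES1-RNAi, against 82.0, 55.5 and 66.4 FPKM in wild type. MIOX2, a myo-inositol oxygenase that feeds cell wall precursors, had 14, 16.3 and 15.2 FPKM in BES1-RNAi, against 65.9, 43.6 and 50.4 FPKM in wild type. Both groups were far apart, with differences of -1.86 ± 0.14 and -1.73 ± 0.12 (limma adjusted p = 5.8e-09 and 4.7e-09). DIN10, a raffinose synthase family gene induced in darkness, was lower by a smaller amount (-0.57 ± 0.15), and its groups overlapped, since wild-type library 2 at 219 FPKM lay below the highest BES1-RNAi library at 221 FPKM.

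Heat-shock genes gave 2 lower, 0 higher and 5 that did not pass among 7 shared members, with a median of -0.11. Among all genes 16% were lower and 54.7% higher, with a median of 0.46. HSP90.1, a cytosolic chaperone, had 46.4, 53.7 and 45.8 FPKM in BES1-RNAi and 97.2, 85.0 and 87.1 FPKM in wild type. HSP101, which dissolves protein aggregates, had 34.8, 40.0 and 31.1 FPKM in BES1-RNAi and 82.7, 68.7 and 57.1 FPKM in wild type. HSP70 averaged 216 FPKM in BES1-RNAi and 197 FPKM in wild type and did not pass. Under either scaling 6 of the 7 were lower, and DREB2A, a heat and drought factor that did not pass (-0.30 ± 0.15, limma adjusted p = 0.0755), was called lower without wild-type library 2 (-0.42). A family of 10 HSP20-like and DnaJ chaperones, grouped from the annotation after the values had been seen, gave 2 higher, 3 lower and 5 not passed. Its median was -0.05, and 1 was higher and 8 lower when scaled to the mean library.

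Other lower genes had roles in defence, wax and hormone chemistry. WRKY70, a regulator of defence responses, had 1.78, 1.17 and 2.22 FPKM in BES1-RNAi, against 6.98, 5.19 and 7.06 FPKM in wild type. IAMT1, which methylates auxin, had 4.71, 4.43 and 3.72 FPKM in BES1-RNAi, against 16.4, 11.2 and 13.1 FPKM in wild type. WSD1, a wax ester synthase, had 13.4, 12.9 and 15.6 FPKM in BES1-RNAi, against 38.3, 28.5 and 39.9 FPKM in wild type. RHA1B, a RING finger gene, was lower too, at 103 FPKM in BES1-RNAi and 271 FPKM in wild type. These genes were also lower under both scalings, which could not challenge a call of lower. RPP4, a disease resistance gene, was higher by 0.93 ± 0.17.

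**Figure D3:**
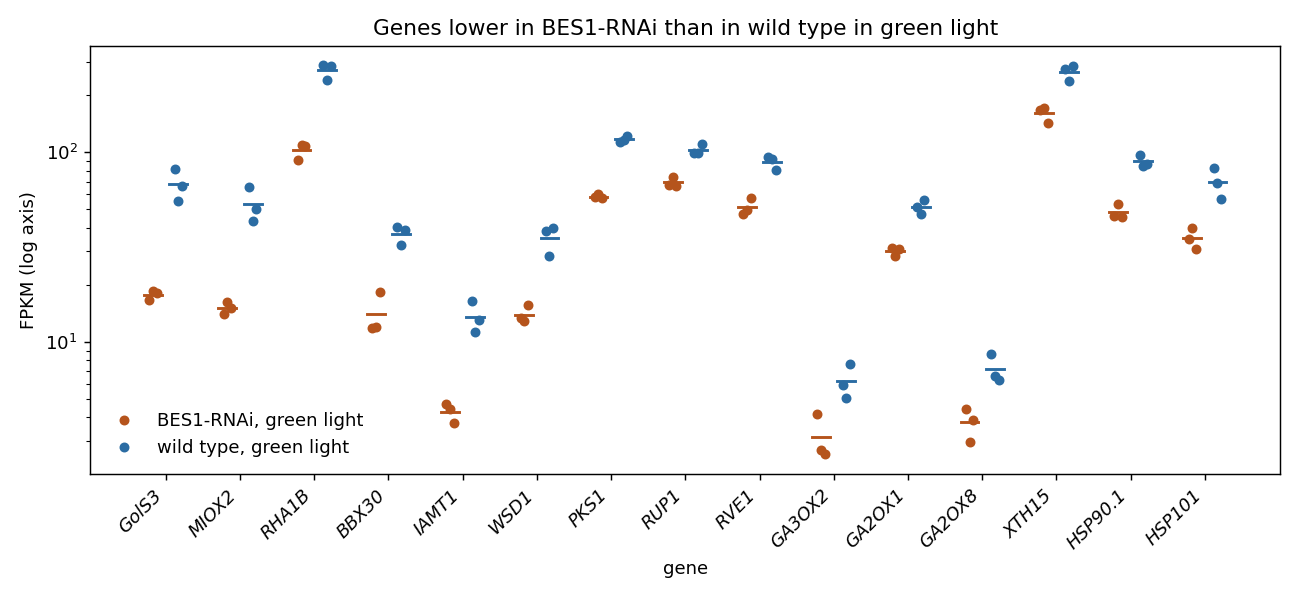
FPKM on a log axis (y) of 15 genes that were lower in BES1-RNAi (x), in green light. Points are single libraries, 3 each of BES1-RNAi (orange, left) and wild type (blue, right), and bars are group means; of the genes plotted, GolS3 and MIOX2 lie furthest apart, with BES1-RNAi means at 0.261 and 0.284 of the wild-type means.

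The 2 nuclear ribosomal RNA loci in the tables, AT2G01020 and AT3G41979, carry identical values and count as 1 signal. It was 4888, 6499 and 6892 FPKM in BES1-RNAi, against 19426, 33636 and 52910 FPKM in wild type, a difference of -2.43 ± 0.42. The loci are short, so they made up 0.160% to 0.226% of the fragments in BES1-RNAi and 0.637% to 1.74% in wild type, and rescaling to the remainder changed no call of a named gene.

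Outside the lists, the shared genes held 13 annotated glycosyltransferases of the UDP-sugar type, of which 10 were higher, 1 lower and 2 did not pass, beside 54.7% higher and 16% lower among all genes. When scaled to the mean library, 6 of the 13 were higher and 2 lower. UGT73C1 had 3.23, 4.19 and 2.92 FPKM in BES1-RNAi and 0.30, 0.30 and 0.32 FPKM in wild type. GBSS1, the granule-bound starch synthase that makes amylose and is annotated in the same superfamily, averaged 32.3 FPKM in BES1-RNAi and 8.24 FPKM in wild type. Of 14 long non-coding RNAs, 10 were higher, 2 lower and 2 did not pass, with a median of 1.06, and 6 were higher and 3 lower when scaled to the mean library. AT1G08477 stood highest among them, at 279, 264 and 304 FPKM in BES1-RNAi and 25.4, 36.2 and 27.9 FPKM in wild type. It overlaps AT1G62170 and AT1G62180, 1 of them on the opposite strand, so its reads may include reads of those genes. AT3G51238 overlaps F3H on the other strand, and the sources used here do not say whether counting used strand, so reads of the 2 cannot be told apart. The same holds for 22 named genes that overlap a gene on the opposite strand, among them CHS, PSY, CAO, PKS1 and RVE1. With overlaps on the same strand counted too, 26 named genes overlap another annotated gene. SAUR6, ASG4, AT4G25260 and the ribosomal RNA locus AT3G41979 overlap a gene on the same strand only, where even counting by strand could not separate the reads. MIR824, the gene of a microRNA, averaged 11.1 FPKM in BES1-RNAi and 4.45 FPKM in wild type. MYB factors came to 6 higher and 0 lower of 11, a share of higher genes near that of all 633. AP2/ERF factors came to 1 higher and 1 lower of 7, and bHLH factors to 2 higher and 3 lower of 8. When scaled to the mean library, the MYB factors gave 3 higher and 2 lower, the AP2/ERF factors 0 higher and 4 lower, and the bHLH factors 1 higher and 6 lower. These families were grouped from the annotation after the values had been seen, and UGT73C1, GBSS1, AT3G51238 and MIR824 were picked from them in the same way.

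**Figure D4:**
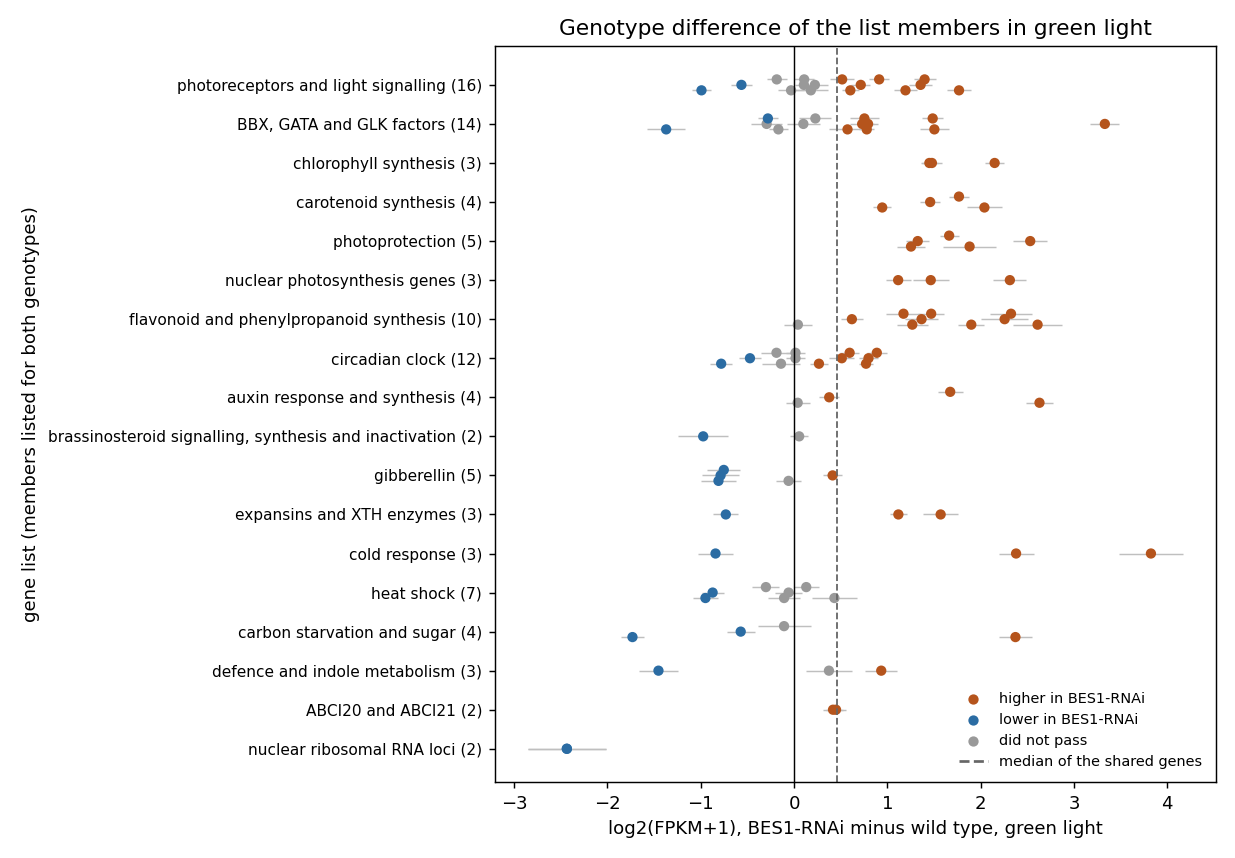
Difference of log2(FPKM+1), BES1-RNAi minus wild type, in green light (x), for each list with at least 2 members listed for both genotypes (y, number of members in brackets). Points are genes, coloured orange where higher, blue where lower and grey where not passed, with standard errors as bars. The dashed line is the median of 0.46 over all shared genes. The chlorophyll, carotenoid, photoprotection and photosynthesis lists lie wholly to the right of it. Under the scalings named in the text the small differences near that line, such as those of ABCI20 and ABCI21, change sign.

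The genotype difference in green light was set against that in the dark, where 308 of the 633 genes were higher in BES1-RNAi (48.7%) and 100 lower (15.8%). These comparisons share no library, only the estimate of the spread. Of the 346 genes higher in green light, 262 were also higher in the dark, 79 did not pass there and 5 were lower. Of the 101 lower in green light, 61 were also lower in the dark, 33 did not pass and 7 were higher. Among the 186 that did not pass in green light, 39 were higher and 34 lower in the dark. The test of the difference between the 2 conditions, limma's interaction term, called 112 genes more positive in green light (17.7%) and 67 more negative (10.6%). This balance turned to 52 more positive and 104 more negative when scaled to the mean library, and to 84 and 91 when scaled within each light condition.

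SAUR6 and SAUR14 had no called difference in the dark and large ones in green light. In the dark SAUR6 averaged 43.8 FPKM in BES1-RNAi and 45.8 FPKM in wild type, and SAUR14 averaged 19.9 FPKM in BES1-RNAi and 21.7 FPKM in wild type. Their interaction terms were 2.69 and 1.79. After scaling within each light condition both were called lower in the dark, by -0.51 and -0.56, and higher in green light. PAP1 averaged 0.240 FPKM in BES1-RNAi and 0.0233 FPKM in wild type in the dark, both near the lower limit of the scale, and its interaction term was 1.62. CGA1 was higher in both conditions, by 1.25 in the dark and 3.33 in green light. PKS1 averaged 10.4 FPKM in BES1-RNAi and 10.5 FPKM in wild type in the dark, and its interaction term was -0.98; after scaling within each light condition it was called lower in the dark too, at -0.43. GA2OX1 did not pass in the dark, at 1.09 FPKM in BES1-RNAi and 0.913 FPKM in wild type, and its term was -0.87.

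Other genes differed more in the dark than in green light. HY5 averaged 34.1 FPKM in BES1-RNAi and 18.7 FPKM in wild type in the dark, a called difference of 0.82, whereas it did not pass in green light, and the interaction term was -0.72. ELIP1 differed by 3.57 in the dark and 1.88 in green light, with dark means of 53.1 FPKM in BES1-RNAi and 3.1 FPKM in wild type. CHLH, LHCB2.2, F3H and RPT2 also had smaller differences in green light, with interaction terms of -0.63, -1.06, -0.82 and -1.19. MIOX2 and HSP90.1 were lower in both conditions but less so in green light, with terms of 0.80 and 0.82. EXL1, a phosphate-responsive gene, averaged 0.887 FPKM in BES1-RNAi and 7.94 FPKM in wild type in the dark and did not pass in green light, a term of 2.15. Each interaction term given here for a named gene passed under both scalings as well.

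In 12 genes the called difference had opposite directions in the 2 conditions. In green light ASG4, a REVEILLE-type MYB factor, had 57.0, 60.2 and 58.8 FPKM in BES1-RNAi and 29.6, 27.5 and 25.6 FPKM in wild type, with dark means of 4.41 FPKM in BES1-RNAi and 6.70 FPKM in wild type; its green-light difference did not pass when scaled to the mean library (0.32). AT5G64850 did likewise, by 1.42 in green light and -0.32 in the dark. RVE7, a MYB factor close to the clock, ran the other way, with 113, 113 and 127 FPKM in BES1-RNAi and 172, 146 and 173 FPKM in wild type in green light, and dark means of 53.1 FPKM in BES1-RNAi and 26.3 FPKM in wild type. FLP1, a flowering-promoting factor-like protein, had the same pattern, at -0.72 in green light and 0.88 in the dark, where it did not pass under either scaling. IAA19 and AT4G25260, a pectin methylesterase inhibitor family gene, were higher in green light by 0.38 and 0.26 and lower in the dark. But scaling turned the sign of their green-light values, so opposite directions were not seen for them after scaling. In green light AT4G25260 was called lower under both scalings, and IAA19 when scaled to the mean library.

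**Figure D5:**
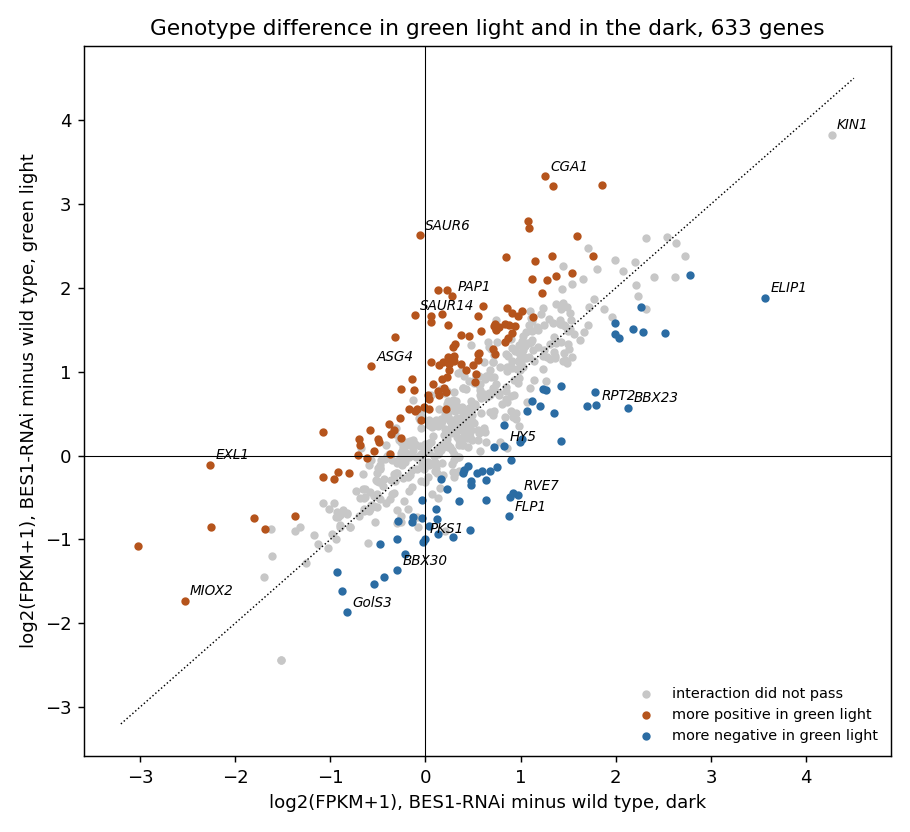
Difference of log2(FPKM+1), BES1-RNAi minus wild type, in green light (y) and in the dark (x), for the 633 shared genes. Orange and blue points have an interaction term called more positive or more negative in green light and grey points have none called, and the dotted line marks equal differences. SAUR6, SAUR14 and CGA1 lie above it and ELIP1, RVE7 and PKS1 below it.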

How the data were processed

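RNA sequencing of whole Arabidopsis seedlings was measured in 12 libraries, 3 for each genotype and light condition. Per the labels' protocols, RNAiso Plus was used to isolate RNA and a TruSeq kit of Illumina to build the libraries. The deposited values are FPKM per gene, given by the authors for gene lists that they had picked; the sources used here do not give the filter. The submitters' processing notes name Trimmomatic 0.36, HISAT2 2.2.1.0, Cufflinks, TopHat, Bowtie2, DESeq 1.18.0 and the build TAIR10, without their roles. How strand and multiple mapping were handled is likewise unknown here.

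Genes listed for both genotypes were joined by identifier. FPKM were transformed to log2(FPKM+1), with a pseudocount of 1 and no filter or scaling, and fitted in limma 3.58.1 (R 4.3.3) with 4 group means over all 12 libraries and an intensity trend. Two-sided p-values were adjusted by Benjamini-Hochberg over all 633 genes. FPKM are not counts, so no count test was run. Whole reads were searched for in the FPKM steps, and at best 29.2% to 45.5% of values came out whole within 0.1 of a read, so the depth of each library is unknown and no counting interval is given. On simulated data of 633 genes for the green-light comparison, with 200 changed, the fit recovered 73.13%, 94.03% and 100% of changes of 0.5, 1 and 2 on the log2 scale, with 5 unchanged genes called. The simulated noise was independent between genes and no library differed in scale, so these rates do not cover the dependence on scaling. At most 2.10% of the values of any 2 replicate libraries were equal, so each library was counted as 1 sample.

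The members and the gene lists were chosen with earlier results of these data known. Genes named in the text follow a rule that gave 83. It took the 12 largest differences in each direction among called genes whose groups do not overlap. Their higher group mean had to be at least 1 FPKM. For each list with at least 3 shared members, the 4 or fewer with the smallest adjusted p were added. The 5 largest interaction terms in each direction followed. Of the 12 genes called in opposite directions in green light and the dark, the 4 per direction with the smallest interaction adjusted p were added. Others were named because they belong to a list, or, where said, after their values were seen. Promoters are the 250 bases before gene starts in the RefSeq annotation of TAIR10.1. Alternatives were other pseudocounts (0.1 and 0.5), a filter on mean FPKM, scalings between libraries, rescaling outside ribosomal RNA, green-light libraries only, no intensity trend, a replicate block and leaving out each green-light library in turn. Scaling within each light condition was added after seeing the data. Python 3.11.15, numpy 2.4.6, pandas 2.3.3 and matplotlib 3.10.9 were used for joins and plots.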

Additional observations from a re-analysis of the deposited data

Results flagged for a closer look

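For the genes below, the genotype difference in green light differed from that in the dark by limma's interaction term (Benjamini-Hochberg adjusted over 633 genes), given as the green-light minus the dark difference on the log2(FPKM+1) scale. No explanation was tested for any of them. Some had levels near the lower limit of the scale, in the dark or in green light. In green light BBX23 averaged 1.25 FPKM in BES1-RNAi and 0.51 FPKM in wild type. AT5G38710 averaged 1.07 FPKM in BES1-RNAi and 3.39 FPKM in wild type there. Wild-type dark means were 0.0233 FPKM for PAP1, 0.137 FPKM for AT1G26761 and 0.323 FPKM for BBX30. At such levels log2(FPKM+1) understates ratios, so these terms do not show whether the ratio grew or shrank in green light.

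Terms more negative in green light were found for light and pigment genes: ELIP1 at -1.69, BBX23 at -1.56, BBX30 at -1.07, LHCB2.2 at -1.06, PKS1 at -0.98, F3H at -0.82, BBX17 at -0.68, CHLH at -0.63, CAO at -0.55, HYH at -0.50 and GLK2 at -0.48. BBX23 was called higher in green light but did not pass there when scaled to the mean library (0.20) or within each light condition (0.32). Clock and flowering genes had terms of -1.60 for FLP1, -1.44 for RVE7 and -0.50 for RVE1. Genes of hormones, stress and cell walls had terms of -1.04 for GolS3, -1.02 for IAMT1, -0.88 for CBF3, -0.87 for GA2OX1, -0.78 for DREB2A, -0.60 for XTH15 and -0.46 for RHA1B. The remaining negative terms were -1.38 for AT4G12410, -1.37 for AT5G57760, -1.16 for AT3G02910, -0.998 for AT4G17670 and -0.74 for AT4G33040.

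Terms more positive in green light were found for the SAUR genes SAUR6 at 2.69 and SAUR14 at 1.79, for EXL1 at 2.15 and for the GATA factor CGA1 at 2.08. Pigment and redox genes had terms of 1.62 for PAP1, 1.176 for CHIL, 0.69 for VTC2 and 0.55 for BCH1. The MYB factor ASG4 had 1.63, BT2 had 1.53, the photoreceptor repressor RUP2 had 0.54, and IAA19 had 0.76. MIOX2 had 0.80 and HSP90.1 had 0.82. The remaining positive terms were 1.95 for AT5G38710, 1.88 for the long non-coding RNA AT1G08477, 1.74 for AT5G64850, 1.71 for AT1G60590, 1.63 for CYP96A12, 1.37 for AT1G26761, 1.03 for AT2G03750 and 0.62 for AT4G25260. RUP2 did not pass under either scaling, and BCH1 and CHIL did not pass when libraries were scaled to the mean library.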

How the results depend on the processing

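The balance of higher and lower genes depended on scaling. When each library was scaled to the mean library, 184 genes were higher and 262 lower in green light, 144 were higher and 181 lower in both light conditions, and 52 interaction terms were more positive and 104 more negative in green light. Scaling within each light condition, chosen after seeing the data, gave 226 lower genes in green light, 166 higher in both and 152 lower in both. Scaling to the mean library turned IAA19 to -0.37, IAA29 to -0.55, GAI to -0.31, HSFA2 to -0.29, THI2.2 to -0.36 and AT4G25260 to -0.48. Scaling within each light condition gave the same 6 genes -0.18, -0.42, -0.12, -0.10, -0.17 and -0.29. Without 1 green-light library at a time, the counts were 330 to 341 higher, 90 to 114 lower, 256 to 262 higher in both, 58 to 68 lower in both, and 88 to 114 more positive and 50 to 70 more negative interaction terms. IAA29 and EXL1, which did not pass in green light, ranged from -0.041 to 0.14 and from -0.37 to 0.21 over the 6 omissions, with IAA29 at -0.041 and EXL1 at 0.091 without BES1-RNAi library 3, and EXL1 at 0.21 without wild-type library 1. The causes were not tested. The replicate numbers were not taken to pair the libraries, since same-number correlations of deviations were -0.17 to 0.111 and 3 of 12 libraries correlated best with their own number. With a replicate block, 343 genes were higher and 101 lower in green light, and no call of the 83 named genes changed. No call among them changed with a pseudocount of 0.5, without the intensity trend or after rescaling outside ribosomal RNA. With a pseudocount of 0.1 AT4G12410 did not pass (limma adjusted p = 0.0552), and with green-light libraries only DREB2A and HSFA2 passed (limma adjusted p = 0.0474 and 0.0322). Depth limits could not be set, since only FPKM were used.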
